A study of Mus musculus with 10 samples.

Results

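The genes described here are the core of the transforming growth factor beta (TGF-beta) signalling route in mouse fibroblasts at the onset of reprogramming. They are the ligand genes Tgfb1, Tgfb2, Tgfb3 and Inhba, the receptor genes Tgfbr1, Tgfbr2 and Tgfbr3, the signal transducer Smad3 and the inhibitory Smad genes Smad6 and Smad7. They were listed by name, with earlier results of these data known. Every probe set that the platform's gene table assigned to 1 of them alone was taken. This gave 10 of 18193 measured genes and 23 of 45037 probe sets. RNA came from secondary inducible mouse embryonic fibroblasts of a 129/SvJ x C57/B6 hybrid strain, in which doxycycline switches on transgenes of the pluripotency regulators Pou5f1 and Sox2 together with Klf4 and Myc, and was hybridised to 10 arrays, 2 for each of 5 groups. The 4 induced cohorts were kept for 96 h in 15% serum with doxycycline labelled as 2 ug/ul, and had on average gone through 0, 1, 2, or 3 or more divisions. The cohort with 3 or more is called the fast-dividing cohort below. The control was uninduced and was starved in 0.5% serum for 96 h. Every comparison with the control therefore joins induction of the factors with a change of serum, and these cannot be told apart. The labels name no cell line, clone or animal, and all groups carry the inducible transgenes. Samples of the fast-dividing cohort and of the control are labelled as biological replicates, those of the other cohorts as replicates with no further word, so that the p-values measure the spread between these samples, which may be technical in part.

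As background, the 3 TGF-beta proteins are secreted as latent complexes that the extracellular matrix stores. Once released, a ligand dimer binds the type II receptor, which phosphorylates the type I receptor, and this kinase phosphorylates Smad2 and Smad3, which enter the nucleus with Smad4. Activin A, a dimer of the Inhba product, reaches the same Smads through its own receptors. Smad6 and Smad7 are inhibitory Smads that act as feedback on the route and on the related bone morphogenetic protein (BMP) branch. In fibroblasts the route maintains matrix production and the contractile, mesenchymal state, and inhibitors of the type I receptor are known to aid reprogramming of mouse fibroblasts.

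The values are log2 intensities, and the depth of an array has no counterpart in reads, so the 2 arrays per group limit the precision. All 7 fibroblast markers listed (Col1a1, Col1a2, Col3a1, Dcn, Lum, Pdgfra and Thy1) lay above the median probe set in every group. Their summed linear intensity was 46416 and 38418 in the fast-dividing cohort, against 84828 and 82840 in the control. By the test described below, 5 of the 7 were called lower, beside 10.9% of all genes. The summed intensity of 6 epithelial markers was 3161 and 3243 in the fast-dividing cohort, against 190 and 183 in the control. Of the 6, Cdh1, Krt8 and Krt14 were called higher, 3 in all, beside 15.1% of all genes. Epcam, Krt5 and Krt18 were not called, and Epcam changed by 0.11 with an adjusted p of 0.777. Of the other lists, 5 macrophage markers summed to 418 and 355 in the fast-dividing cohort, against 209 and 199 in the control, with Cd68 called higher and Lyz2 lower. The 4 endothelial markers summed to 334 and 390 there, against 129 and 126 in the control, with Tek called higher and Kdr lower. The 3 measured adipocyte markers summed to 401 and 318 there, against 4437 and 4679 in the control, with Lpl called lower. The 4 skeletal muscle markers summed to 152 and 171 there, against 195 and 290 in the control, with Tnnc1 called lower. The difference between the 3' and 5' control probe sets reads RNA integrity. For the actin control it was 0.49 and 0.50 in the fast-dividing cohort, against 0.26 and 0.26 in the control. The cohorts of 0, 1 and 2 divisions read 0.35 and 0.29, 0.47 and 0.29, and 0.46 and 0.50. For the Gapdh control the difference was 0.27 and 0.26 in the fast-dividing cohort, against 0.06 and 0.03 in the control. The part of these shifts in the results below was not tested. In bulk RNA, fewer cells of a type and less RNA per cell cannot be told apart.

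In the fast-dividing cohort, 4 of the 10 genes fell relative to the control and 0 rose. They were the ligand genes Tgfb2 and Tgfb3, the transducer Smad3 and the inhibitory Smad6, with log2 changes between -0.60 and -1.59. A gene was called through its brightest probe set when limma's two-sided test over all probe sets gave a Benjamini-Hochberg adjusted p under 0.05. By this rule 10.9% of all genes were called lower and 15.1% higher. The median log2 change of the 10 genes was -0.81, against 0.02 over all genes. Arrays with the same replicate number deviated together across groups, so the fit was also run with the replicate number as a block, and it then called 7 of the 10 lower, adding Inhba, Tgfbr2 and Tgfbr3, beside 16.3% of all genes. Tgfbr1, Smad7 and Tgfb1 were called in neither fit. Over probe sets, 9 of the 23 were called lower, beside 9.38% of all probe sets, and 14 with the block, beside 14.3%.

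**Figure D1:**
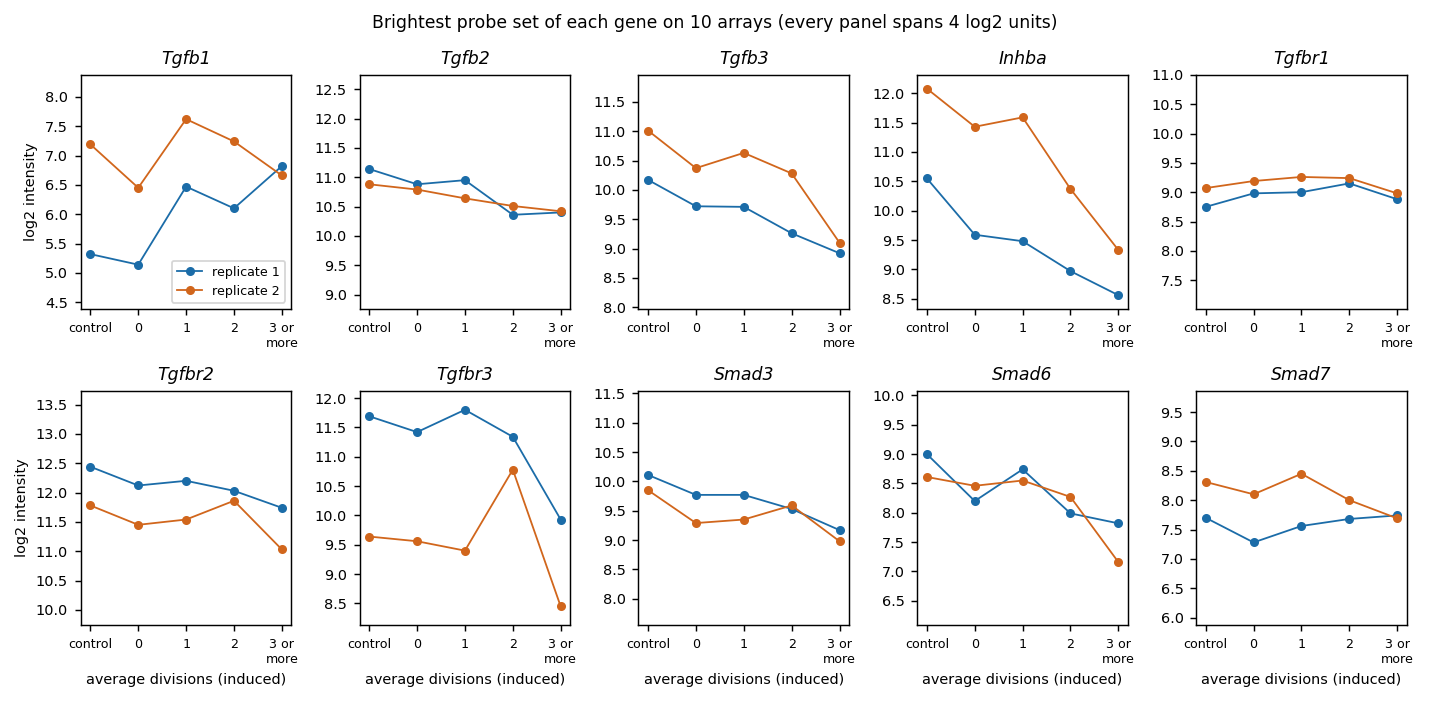
Log2 intensity (vertical axis) of the brightest probe set of each of the 10 genes in the control and in the cohorts of 0, 1, 2 and 3 or more divisions (horizontal axis), with a blue line for replicate 1 and an orange line for replicate 2 and every panel spanning 4 log2 units. Both arrays of the fast-dividing cohort sit below both control arrays for Inhba, Tgfb2, Tgfb3, Tgfbr2, Smad3 and Smad6, which is 6 of the 10 genes beside 28.6% of all genes, and the replicate lines do not cross for Inhba, Tgfb3, Tgfbr1, Tgfbr2 and Tgfbr3.

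Inhba encodes the beta A subunit whose dimer is activin A. Of the 10 genes it had the largest log2 change in the fast-dividing cohort. Its brightest probe set read 8.56 and 9.33 in the fast-dividing cohort, against 10.55 and 12.08 in the control. After 0, 1 and 2 divisions the arrays read 9.59 and 11.43, 9.48 and 11.59, and 8.97 and 10.37. Replicate 2 was the higher array in all 5 groups, and the 2 arrays of the fast-dividing cohort lay below both control arrays. The means were 8.94 ± 0.54 in the fast-dividing cohort and 11.31 ± 1.08 in the control (SD, n = 2 each), a log2 change of -2.37 ± 0.89 (SE) that did not pass the test, with an adjusted p of 0.102. With the replicate number as a block the SE was 0.26 and the adjusted p 0.000199. The changes of the same-numbered arrays were -1.99 and -2.75, and the mean was 5.18-fold lower on the linear scale. The other Inhba probe set was dim, below the median of all probe sets, and changed by -0.12 with an adjusted p of 0.656.

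Tgfb3, which encodes a TGF-beta ligand and is measured by 1 probe set, fell in the fast-dividing cohort. It read 8.92 and 9.10 there, against 10.17 and 11.01 in the control. Cells at 0, 1 and 2 divisions read 9.72 and 10.37, 9.71 and 10.63, and 9.26 and 10.28. Both arrays of the fast-dividing cohort lay below every other array. The means of 9.01 ± 0.13 in the fast-dividing cohort and 10.59 ± 0.59 in the control (SD, n = 2 each) gave a log2 change of -1.59 ± 0.44 (SE), with an adjusted p of 0.0368 and of 0.000291 with the block. The call was lost without either array of the fast-dividing cohort, with adjusted p of 0.146 and 0.134, without control replicate 2, at 0.177, and with intensities floored at 16, at 0.114.

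Tgfb2, the ligand that depends most on the co-receptor betaglycan, also fell. It read 10.40 and 10.42 on its brightest probe set in the fast-dividing cohort, against 11.14 and 10.88 in the control. The cohorts of 0, 1 and 2 divisions read 10.88 and 10.79, 10.95 and 10.64, and 10.36 and 10.51. On this probe set the cohort of 2 divisions and the fast-dividing cohort thus lay side by side, below the other 3 groups. The log2 change of -0.60 ± 0.15 (SE) had an adjusted p of 0.0227, and of 0.0110 with the block. The other 3 probe sets changed by -0.82, -0.48 and -0.57, with adjusted p of 0.0401, 0.0552 and 0.275, so the direction was shared and 2 of the 4 were called. The order of the groups was not shared on those that changed by -0.82 and -0.57. There replicate 2 of 1 division read 9.16 and 7.47, below replicate 1 of 2 divisions at 9.39 and 7.95. The call on the brightest probe set was lost when only the 4 arrays compared were fitted, at an adjusted p of 0.0523, and without control replicate 1, at 0.131, or replicate 1 or 2 of the fast-dividing cohort, at 0.0934 and 0.107.

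Tgfb1, the founding ligand gene of the family, did not pass the test. Its probe set read 6.82 and 6.66 in the fast-dividing cohort, against 5.32 and 7.19 in the control. After 0, 1 and 2 divisions the arrays read 5.14 and 6.45, 6.47 and 7.62, and 6.10 and 7.24. Every cohort overlapped the control, and the arrays of 1 division and of the fast-dividing cohort lay above both arrays of 0 divisions. The log2 change against the control was 0.49 ± 0.70 (SE), with an adjusted p of 0.703 and a 95% interval of -1.12 to 2.09, and the same-numbered arrays changed in opposite directions, by 1.5 and -0.53. A second, dim probe set changed by -0.24 with an adjusted p of 0.238.

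The proximal promoters of Inhba and Tgfb2, ligand genes that read lower in the fast-dividing cohort, are shown here. Their matches to the motifs below differ from those of Smad6, shown further on. They come from RefSeq on GRCm38.p6 and run 250 bases before to 50 after the annotated start, for Inhba on the plus strand (chr13:16011601-16011900) and for Tgfb2 on the minus strand (chr1:186705940-186706239). Capitals mark matches to the motifs searched, each read on both strands. The Smad motifs were the palindrome GTCTAGAC and the shorter box CAGACA. The element for AP-1 factors was spelled TGANTCA and the cyclic AMP response element was spelled TGACGTCA. The core motifs were the box bound by Sp1 and Klf factors, GGGCGG, and, for TATA-type promoters, the element TATAAA.
Inhba: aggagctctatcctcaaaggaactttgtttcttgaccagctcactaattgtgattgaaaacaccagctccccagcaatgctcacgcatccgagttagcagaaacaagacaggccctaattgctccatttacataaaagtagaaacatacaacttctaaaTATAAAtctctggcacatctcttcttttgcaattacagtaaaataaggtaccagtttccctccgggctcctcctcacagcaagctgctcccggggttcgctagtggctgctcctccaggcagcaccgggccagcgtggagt
Tgfb2: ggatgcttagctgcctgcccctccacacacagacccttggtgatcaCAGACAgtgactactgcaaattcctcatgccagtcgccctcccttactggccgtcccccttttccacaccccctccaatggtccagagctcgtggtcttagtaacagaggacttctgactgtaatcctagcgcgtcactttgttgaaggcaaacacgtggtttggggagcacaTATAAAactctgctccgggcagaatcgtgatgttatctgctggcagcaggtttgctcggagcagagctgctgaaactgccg
Both windows hold TATAAA, at -31 from the start in Tgfb2 and at -91 in Inhba, which 13.6% of 32851 promoter windows of the same length hold. Tgfb2 also holds CAGACA at -204, present in 21.0% of windows. Neither holds GGGCGG, which 35.7% of windows hold, and no window of the genes examined here holds TGANTCA or TGACGTCA, present in 7.81% and 1.79% of windows. The search covered 8 windows for 7 of the 10 genes, and Tgfb3, Tgfbr3 and Smad7 were not among them. A match describes the letters in the window only.

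Among the receptors the brightest probe sets gave no call without the block. Tgfbr2, the type II receptor that binds the ligand, read 11.74 and 11.03 in the fast-dividing cohort, against 12.44 and 11.78 in the control. Cells at 0, 1 and 2 divisions read 12.12 and 11.45, 12.20 and 11.54, and 12.03 and 11.86. The arrays of the fast-dividing cohort lay below those of the control, with changes of -0.70 and -0.75 between same-numbered arrays, and the other cohorts overlapped the control. The log2 change of -0.73 ± 0.35 (SE) had an adjusted p of 0.199, and of 0.00591 with the block. A second Tgfbr2 probe set fell by 1.13 on the log2 scale with an adjusted p of 0.0327, and of 0.000288 with the block. The third was dim, and its change rounded to 0.

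Tgfbr3 encodes betaglycan, the co-receptor that presents ligand to the type II receptor. It read 9.93 and 8.45 in the fast-dividing cohort, against 11.69 and 9.64 in the control. The cohorts of 0, 1 and 2 divisions read 11.42 and 9.56, 11.80 and 9.40, and 11.34 and 10.78. Replicate 1 was the higher array in every group, and replicate 1 of the fast-dividing cohort lay above replicate 2 of the control, so the groups overlapped. The log2 change of -1.47 ± 0.99 (SE) had an adjusted p of 0.364. With the block it passed, at 0.0115, and the same-numbered arrays changed by -1.76 and -1.18. The second probe set changed by -1.02, with an adjusted p of 0.316, and of 0.0162 with the block.

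Tgfbr1, the type I receptor kinase that phosphorylates Smad3, had the narrowest range over the arrays among the 10 brightest probe sets. It read 8.88 and 8.98 in the fast-dividing cohort, against 8.75 and 9.07 in the control. After 0, 1 and 2 divisions the arrays read 8.98 and 9.19, 9.00 and 9.26, and 9.15 and 9.24. All cohorts except that of 2 divisions overlapped the control. The log2 change between 3 or more divisions and the control was 0.02 ± 0.15 (SE), with an adjusted p of 0.953 and a 95% interval of -0.33 to 0.37. The other 2 probe sets were dim and were not called.

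**Figure D2:**
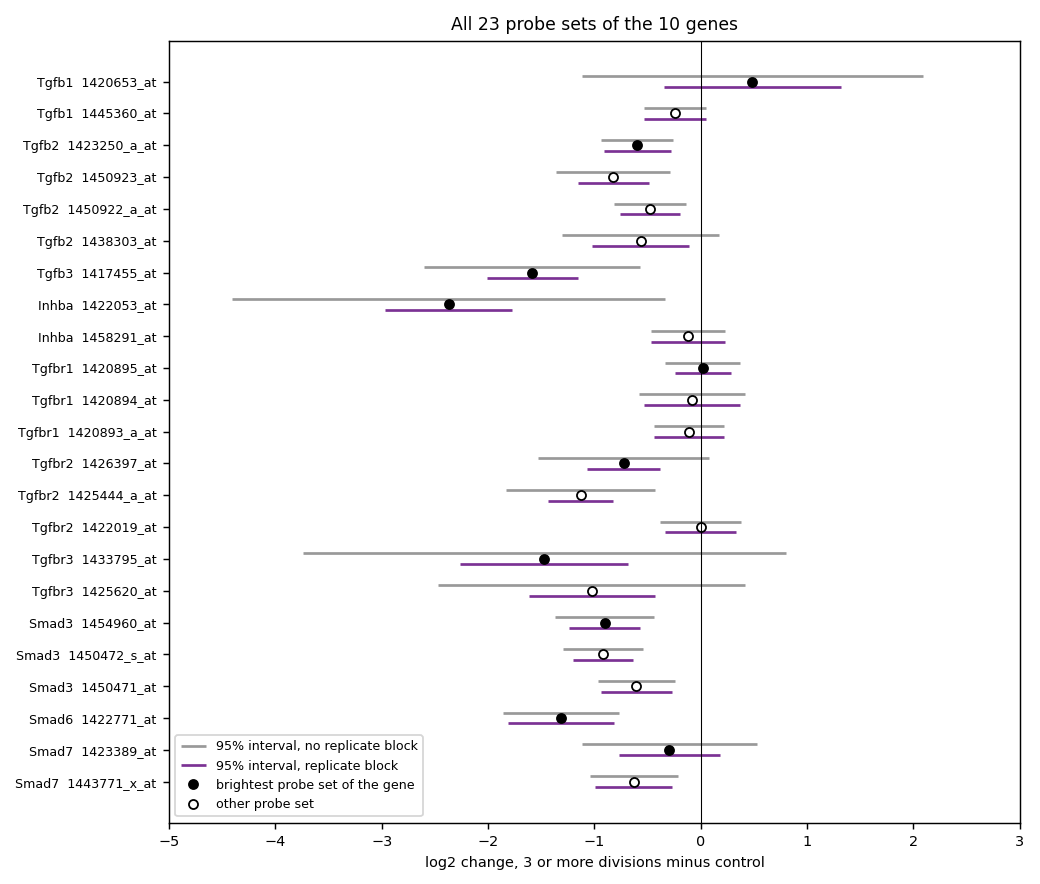
Log2 change between the fast-dividing cohort and the control (horizontal axis) for each of the 23 probe sets of the 10 genes (rows), with the 95% interval of the limma fit in grey, that of the fit with the replicate block in purple, and a filled point for the brightest probe set of a gene. The 9 probe sets called without the block lie below 0, and they belong to Tgfb2, Tgfb3, Tgfbr2, Smad3, Smad6 and Smad7.

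Smad6 and Smad3 held the calls that were lost under the fewest alternatives. Smad6, the inhibitory Smad that acts mainly on the BMP branch, read 7.82 and 7.16 on its only probe set in the fast-dividing cohort, against 9.00 and 8.61 in the control. Cells at 0, 1 and 2 divisions read 8.20 and 8.46, 8.74 and 8.55, and 7.99 and 8.27. The arrays of the fast-dividing cohort lay below all others, and those of 0 and 2 divisions lay below both control arrays. The means of 7.49 ± 0.47 in that cohort and 8.81 ± 0.27 in the control (SD, n = 2 each) gave a log2 change of -1.31 ± 0.24 (SE), a fall of 2.49-fold with an adjusted p of 0.00577. It was called under all 12 alternatives run for this comparison.

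Smad3, the transcription factor that the activated type I receptors phosphorylate, fell on all 3 of its probe sets. The brightest read 9.17 and 8.98 in the fast-dividing cohort, against 10.11 and 9.85 in the control. The cohorts of 0, 1 and 2 divisions read 9.77 and 9.29, 9.77 and 9.35, and 9.53 and 9.59. On this probe set these 3 cohorts lay between the other groups, below every control array and above every array of the fast-dividing cohort. The log2 change between that cohort and the control was -0.90 ± 0.20 (SE), a fall of 1.87-fold with an adjusted p of 0.0156. The other probe sets changed by -0.92 and -0.61, with adjusted p of 0.00535 and 0.0286. On the one that changed by -0.61, the arrays of 0 divisions read 5.6 and 5.29. They overlapped those of the fast-dividing cohort, at 5.69 and 5.31. Without control replicate 1 the brightest probe set had an adjusted p of 0.0914, and without replicate 2 of the fast-dividing cohort 0.111.

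Smad7, the inhibitory Smad that TGF-beta itself is known to induce, was not called on its brightest probe set. It read 7.74 and 7.69 in the fast-dividing cohort, against 7.70 and 8.31 in the control. After 0, 1 and 2 divisions the arrays read 7.28 and 8.10, 7.56 and 8.45, and 7.68 and 8.0. Every cohort overlapped the control, and the log2 change of -0.29 ± 0.36 (SE) had an adjusted p of 0.641. Its second probe set read 6.67 and 6.54 in the fast-dividing cohort, against 7.04 and 7.43 in the control, and fell by 0.63 on the log2 scale with an adjusted p of 0.0412. The probe sets of Smad7 thus gave the same sign and different calls.

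The Smad6 promoter window is shown for its Smad palindrome. It lies on the minus strand of chromosome 9 (chr9:64022010-64022309), with capitals as above.
Smad6: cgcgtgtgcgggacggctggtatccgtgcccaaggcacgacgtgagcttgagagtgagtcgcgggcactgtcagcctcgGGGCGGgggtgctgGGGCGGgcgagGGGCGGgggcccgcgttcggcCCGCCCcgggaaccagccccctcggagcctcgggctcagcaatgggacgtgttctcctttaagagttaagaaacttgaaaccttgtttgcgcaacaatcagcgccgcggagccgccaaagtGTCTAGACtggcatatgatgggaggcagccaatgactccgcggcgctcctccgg
The palindrome GTCTAGAC stands at -4 from the annotated start and occurs in 70 of 32851 windows, or 0.213%. The window of Smad7, the other inhibitory Smad gene, was not searched, so the 2 cannot be compared. The same window holds 4 matches to GGGCGG, against 6 in Tgfb1, 2 in Smad3 and 2 in the upstream window of Tgfbr1. The Smad6 window holds no TATAAA, in contrast with the Inhba and Tgfb2 windows above.

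The cohorts of 0 and 1 division gave no calls among the 10 genes. Against the control, limma called 0 of 10 in the cohort of 0 divisions, beside 0.0495% of all genes called lower and 0.104% higher. The unadjusted p was under 0.05 for 0 of the 10 and for 2148 of all 18193 genes. The blocked fit called 0 as well, beside 0.748% and 1.92%. The log2 changes of 9 of the 10 were below 0, with a median of -0.39 against a median over all genes that rounded to 0. The lowest adjusted p of the 10 genes were those of Smad3 and Smad6, at 0.538 and 0.60, with log2 changes of -0.45 and -0.47. After 1 division limma called 0 of 10, beside 0.231% of all genes called lower and 0.698% higher. The unadjusted p was under 0.05 for 0 of the 10 and for 2668 of all 18193 genes. The blocked fit called 0, beside 2.06% and 3.55%. The median of the 10 genes was -0.19.

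After 2 divisions, limma without the block called 0 of the 10 against the control, beside 1.77% of all genes called lower and 3.63% higher. The unadjusted p was under 0.05 for 2 of the 10 and for 3897 of all 18193 genes. With the block 3 ligand genes passed, beside 5.68% of all genes called lower and 8.02% higher. They were Tgfb2, with a log2 change of -0.57 and an adjusted p of 0.0327 (0.0763 without the block), Tgfb3, with -0.82 and 0.0251 (0.390 without), and Inhba, with -1.65 and 0.00525 (0.392 without). No receptor or Smad gene was called through its brightest probe set in that cohort. With the block a second Tgfbr2 probe set and a second Smad3 probe set were called, with log2 changes of -0.56 and -0.71 and adjusted p of 0.0305 and 0.00756 (0.400 and 0.0531 without the block). The record form of the arrays differs between the cohorts of 0, 1 and 2 divisions and the control, since the control and the fast-dividing cohort share a form that names RMA and the others do not, and it cannot be told apart from the groups in these comparisons.

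Between 2 and 0 divisions all arrays share a record form. Limma called 0 of the 10 there, beside 0% of all genes called lower and 0.0550% higher. The unadjusted p was under 0.05 for 1 of the 10 and for 1413 of all 18193 genes. The blocked fit called 0, beside 0.357% and 0.731%. Between 3 or more and 0 divisions limma called 0 of the 10, beside 4.82% of all genes called lower and 7.44% higher. The unadjusted p was under 0.05 for 3 of the 10 and for 5154 of all 18193 genes. The blocked fit called 4 lower, beside 10.3% of all genes called lower and 13.1% higher, again across record forms. They were Inhba (-1.57, adjusted p = 0.00394, 0.346 without the block), Tgfb3 (-1.04, 0.00572, 0.204 without), Smad6 (-0.84, 0.0293, 0.0668 without) and Tgfbr3 (-1.30, 0.0315, 0.501 without). These comparisons share arrays with those against the control and are not independent of them.

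Several of the 10 genes differed between the replicate numbers within every group. Replicate 2 minus replicate 1 of Inhba was 1.53 in the control and 1.84, 2.11, 1.40 and 0.77 in the cohorts of 0, 1, 2 and 3 or more divisions. For Tgfbr3 the same differences were -2.05, -1.86, -2.40, -0.56 and -1.48. For Tgfb3 they were 0.84, 0.66, 0.92, 1.01 and 0.18. Inhba and Tgfb3 thus read higher on replicate 2 and Tgfbr3 on replicate 1, whatever the cohort. The sign was the same in all 5 groups for 5 of the 10 genes (50%), with Tgfbr1 and Tgfbr2 as the others, and for 24.5% of all genes. By the size of the mean difference Tgfbr3 lay at percentile 99.6 of all genes, Inhba at 99.5 and Tgfb1 at 98.5. The median size was 0.55 over the 10 genes and 0.11 over all genes. What the replicate numbers stand for is not given in the labels, and these values are a description.

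**Figure D3:**
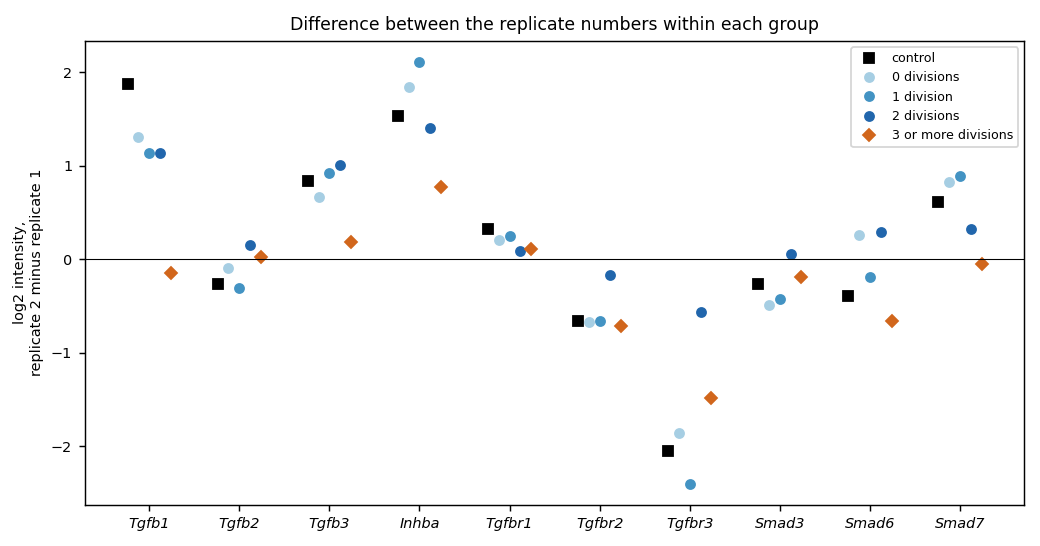
Replicate 2 minus replicate 1 in log2 intensity (vertical axis) for each of the 10 genes (horizontal axis), with 1 point for each of the 5 groups. Inhba, Tgfb3 and Tgfbr1 lie above 0 in all groups and Tgfbr2 and Tgfbr3 below 0, while the other 5 genes lie on both sides of 0.

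Over the 10 arrays, the genes whose pattern was most like that of Inhba, the gene with the lowest log2 change, were Pmepa1, with a Pearson r of 0.991, Flna and Itga8, with 0.990 each, and Palld, with 0.987, among 9095 genes compared. Pmepa1 encodes a membrane protein that dampens TGF-beta signalling, Flna an actin cross-linker, Itga8 an integrin subunit and Palld an actin-associated scaffold. Their log2 changes in the fast-dividing cohort against the control were -1.63, -0.71, -3.03 and -1.0, with adjusted p of 0.0764, 0.157, 0.0505 and 0.158. Pmepa1 read 9.01 and 9.20 in the fast-dividing cohort, against 10.26 and 11.20 in the control. It read 9.51 and 10.61, 9.56 and 10.92, and 9.04 and 10.02 in the cohorts of 0, 1 and 2 divisions, with replicate 2 above replicate 1 in each group as for Inhba. The genes most like Tgfb1, the gene with the highest log2 change, were Actr1a (0.946), Ano6 (0.943), Heatr5b (0.940) and Zfp407 (0.938), and none of them was called. The arrays share groups and replicate numbers, so these r values are descriptions and carry no test.

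**Figure D4:**
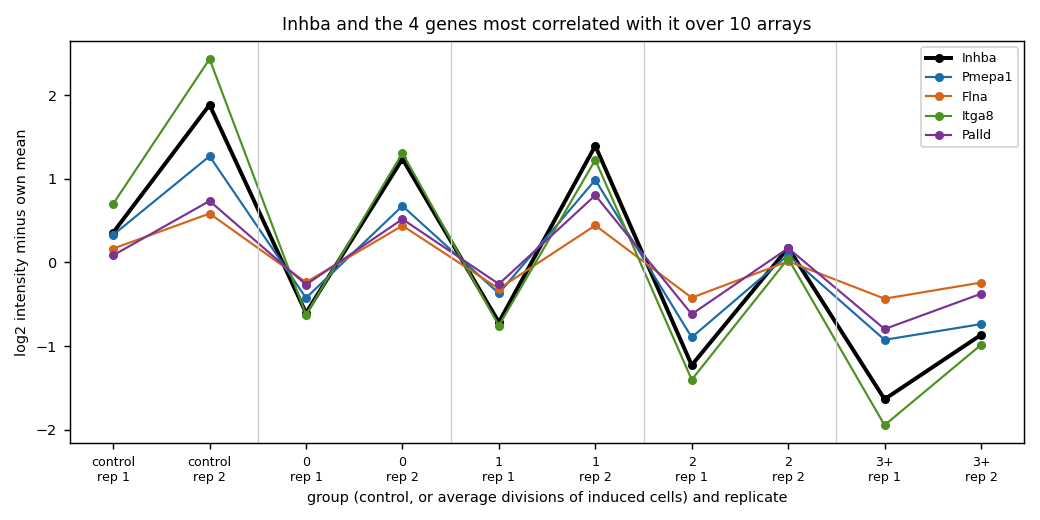
Log2 intensity minus each gene's own mean (vertical axis) over the 10 arrays, ordered by group and replicate (horizontal axis), for Inhba and the 4 genes most like it. The lines share the step between replicate 1 and replicate 2 within each group and, within each replicate number, lie lowest in the fast-dividing cohort.

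The other genes of the pathway were read from 7 lists of 96 genes, of which 88 were measured. In the fast-dividing cohort, 28 of the 88 fell and 5 rose relative to the control, beside 10.9% and 15.1% of all genes, with a median log2 change of -0.43 against 0.02 over all genes. With the block the counts were 41 lower and 10 higher, beside 16.3% and 19.4% of all genes. The falls lay mostly in latency proteins, receptors and target genes. The lists of Smads and of feedback factors held genes of both directions, in counts near the shares of all genes without the block.

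Of 12 measured genes of ligand storage and activation, 7 fell and 0 rose, beside 10.9% and 15.1% of all genes. Their median log2 change was -0.89. Ltbp3, a binding protein that holds latent TGF-beta, read 10.59 and 10.10 in the fast-dividing cohort, against 12.59 and 12.39 in the control, a log2 change of -2.14 ± 0.23 (SE, adjusted p = 0.000683). Emilin1, an elastic fibre glycoprotein that restrains TGF-beta maturation, read 8.10 and 7.98 in that cohort, against 10.02 and 10.08 in the control, a change of -2.01 ± 0.19 (adjusted p = 0.000447). Ltbp1, another latency binding protein, fell by 1.78 on the log2 scale, and Ltbp2, a matrix protein of the same family, by 2.85, with adjusted p of 0.00136 and 0.0223.

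Among ligands and antagonists of the activin and nodal branch, 3 of 9 fell and 0 rose, beside 10.9% and 15.1% of all genes. The median was -0.44, and the blocked fit called 5 lower, beside 16.3% of all genes. Fst encodes follistatin, which binds and neutralises activin. It read 9.97 and 9.75 in the fast-dividing cohort, against 11 and 11.76 in the control, a log2 change of -1.52 ± 0.26 (SE, adjusted p = 0.00460). The nodal antagonist gene Lefty1 changed by -1.01, with an adjusted p of 0.0196. The count of 3 includes its relative Lefty2, whose probe set was dim. It read 3.24 and 3.23 in the fast-dividing cohort, against 3.60 and 3.75 in the control, all below the median of all probe sets at 5.05, so its change of -0.44 (adjusted p = 0.0354) is one between values near the low end of the arrays. Of 13 other receptors and co-receptors, 6 fell and 0 rose, beside 10.9% and 15.1% of all genes, with a median of -0.32. Bmpr1b, a type I BMP receptor, read 6.39 and 6.42 in the fast-dividing cohort, against 8.06 and 8.18 in the control. Its log2 change was -1.72, with an adjusted p of 0.00451. The pseudoreceptor gene Bambi, the activin type II receptor gene Acvr2a and the BMP type I receptor gene Bmpr1a changed by -1.21, -1.17 and -1.12, with adjusted p of 0.0174, 0.00455 and 0.00108.

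Of 10 other Smads and their co-repressors, 2 rose and 1 fell, near the 15.1% and 10.9% of all genes, with a median of 0.02. Tgif2, a Smad co-repressor, read 7.03 and 7.48 in the fast-dividing cohort, against 4.96 and 6.14 in the control, a rise of 1.70 ± 0.45 on the log2 scale (SE, adjusted p = 0.0291). Smad4, the shared partner Smad, rose by 0.50 and Ski, a second co-repressor, fell by 0.96, with adjusted p of 0.0149 and 0.00200. Of 12 feedback and turnover genes, 2 rose and 1 fell, again near these shares, with a median of 0.07. The blocked fit called 4 higher and 2 lower, beside 19.4% and 16.3% of all genes. Nedd4l, a ubiquitin ligase that acts on activated Smad2 and Smad3, read 8.5 and 8.53 in the fast-dividing cohort, against 6.59 and 7.20 in the control, a rise of 1.62 ± 0.25 (SE, adjusted p = 0.00281). The deubiquitinase gene Usp15 rose by 0.69 and the ubiquitin ligase gene Smurf2 fell by 0.65, with adjusted p of 0.0326 and 0.0104.

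Of 15 genes of the BMP branch, 3 fell and 0 rose, beside 10.9% and 15.1% of all genes, with a median of -0.29. The blocked fit called 5 lower and 2 higher, beside 16.3% and 19.4%. The ligand gene Bmp4 read 9.72 and 9.52 in the fast-dividing cohort, against 12.08 and 11.66 in the control, a log2 change of -2.25 ± 0.33 (SE, adjusted p = 0.00227). Id4, a BMP-responsive inhibitor of basic helix-loop-helix factors, changed by -2.07, and Bmp1, which despite its name encodes a procollagen protease, by -0.75, with adjusted p of 0.0216 and 0.0169. The relatives of Id4 on this list, Id1, Id2 and Id3, were not called without the block. In the fast-dividing cohort they read 11.15 and 10.47, 10.95 and 10.23, and 11.79 and 11.28. Their control arrays read 10.75 and 10, 10.87 and 9.54, and 11.82 and 11.14.

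Of 17 genes known as targets of TGF-beta, 7 fell and 1 rose, beside 10.9% and 15.1% of all genes, with a median of -0.77. The blocked fit called 13 lower and 2 higher, beside 16.3% and 19.4%. Postn, the matrix protein periostin, read 12.15 and 11.59 in the fast-dividing cohort, against 14.05 and 13.86 in the control, a log2 change of -2.08 ± 0.25 (SE, adjusted p = 0.000961). Lox, which cross-links collagen, Ccn2, a matricellular growth factor, and Snai2, a repressor of epithelial genes, changed by -1.77, -1.69 and -1.55, with adjusted p of 0.000733, 0.0225 and 0.0428. The gene that rose was Timp1, an inhibitor of matrix proteases, named after its values were seen. It read 12.29 and 12.08 in the fast-dividing cohort, against 10.67 and 10.68 in the control, a change of 1.51 with an adjusted p of 0.00108. Several of these lists hold genes of fibroblast matrix, and the fibroblast marker sum was lower in the same cohort, as given above. The part of that shift in these counts was not tested.

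**Figure D5:**
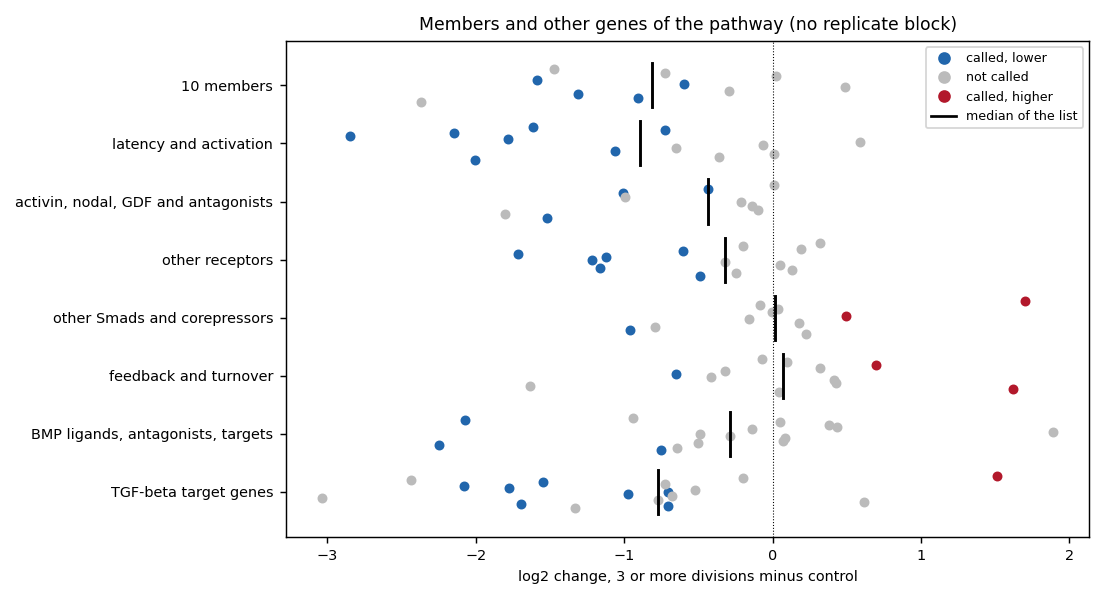
Log2 change between the fast-dividing cohort and the control (horizontal axis) for the 10 genes and for each of the 7 pathway lists (rows), with 1 point per gene coloured by its call and a line at the list's median. The called genes of the latency, activin and nodal, receptor and BMP lists lie below 0, and the lists of other Smads and of feedback genes have called genes on both sides.

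Against the control, limma called 0 of the 88 pathway genes after 0 divisions, beside 0.0495% of all genes called lower and 0.104% higher. The unadjusted p was under 0.05 for 12 of the 88 and for 2148 of all 18193 genes. The blocked fit called 2 lower, Ltbp2 and Inhbb, beside 0.748% of all genes. After 1 division 1 rose, Timp1, and 0 fell, beside 0.698% and 0.231% of all genes. The blocked fit called 2 higher, Timp1 and Itgb8, and 3 lower, Ltbp2, Lefty1 and Id4, beside 3.55% and 2.06%. After 2 divisions Timp1 rose and Bmpr1b and Lox fell, beside 3.63% of all genes called higher and 1.77% lower. The blocked fit called 6 higher and 20 lower, beside 8.02% and 5.68%. The genes behind these small counts were named after their values were seen. Between 2 and 0 divisions limma called 0 of 88, beside 0% of all genes called lower and 0.0550% higher. The unadjusted p was under 0.05 for 10 of the 88 and for 1413 of all 18193 genes. The blocked fit called 1 higher, Timp1, beside 0.731% of all genes. Between 3 or more and 0 divisions 12 fell and 3 rose, Smad4, Nedd4l and Timp1, beside 4.82% and 7.44% of all genes. The blocked fit gave 28 lower and 7 higher, beside 10.3% and 13.1%.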

How the data were processed

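Total RNA from 10 samples was measured on Affymetrix arrays. The authors deposited 1 table of linear intensity, with array medians between 31.4 and 33.95. RMA is named for the control arrays and those of 3 or more divisions, per the submitters' processing notes, and no tool is given in the sources used here for the others. How the arrays were normalized together is not given either.

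Intensities were floored at 1, which moved 0 values, taken to log2 and quantile normalized. The 45037 probe sets other than the 64 array controls were fitted with limma 3.58.1 in R 4.3.3 (lmFit, eBayes, 5 groups, 5 residual degrees of freedom, 4 with the block), with Benjamini-Hochberg adjustment over all of them and a threshold of 0.05. Genes were read through the probe set that was brightest on average. The script was tested on simulated data. Replicate numbers were taken to pair samples, since same-numbered arrays deviated together in all 10 pairs of groups (r between 0.477 and 0.872 over 9096 genes). Alternatives covered normalization, the floor, a filter on dim probe sets, the features fitted, the choice of probe set, the arrays fitted and the replicate block. They also covered leaving out each array of the groups compared. The genes, pathway lists and markers were chosen with earlier results of these data known. All 10 genes are named, with up to 4 called genes per list that had the largest log2 change and non-overlapping arrays in the fast-dividing cohort against the control, and the 4 genes most like the genes with the highest and the lowest change. Of the listed pathway genes, 8 were not analysed here. Promoter windows are from RefSeq on GRCm38.p6 for 7 of the 10 genes.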

Additional observations from a re-analysis of the deposited data

Results flagged for a closer look

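On its brightest probe set, Tgfb1 was the gene whose change from the control had opposite directions after 0 divisions and after 1 or 2, on both same-numbered arrays. In the cohort of 0 divisions the changes from the same-numbered control arrays were -0.18 and -0.74, in the cohort of 1 division 1.15 and 0.42, and in the cohort of 2 divisions 0.78 and 0.05. The change in the cohort of 1 division exceeded that in the cohort of 0 divisions by 1.25 on the log2 scale, a difference that was not tested. The change in the cohort of 2 divisions exceeded it by 0.87, and the limma comparison of 2 with 0 divisions gave an adjusted p of 0.898, and of 0.408 with the replicate block.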

How the results depend on the processing

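With the replicate number as a block, the counts of the 10 genes called were 7 in place of 4 between 3 or more divisions and the control, 3 in place of 0 between 2 divisions and the control, and 4 in place of 0 between 3 or more and 0 divisions. The counts of other pathway genes were 51 in place of 33 between 3 or more divisions and the control, 2 in place of 0 between 0 divisions and the control, and 1 in place of 0 between 2 and 0 divisions. For other pathway genes the block also gave 2 higher and 3 lower in place of 1 higher and 0 lower between 1 division and the control, 6 higher and 20 lower in place of 1 and 2 between 2 divisions and the control, and 7 higher and 28 lower in place of 3 and 12 between 3 or more and 0 divisions. A floor of 16, which compresses dim genes, gave 21 other pathway genes in place of 33. Each array of the groups compared was also left out in turn, which leaves 1 array in its group. Fewer of the 10 genes were then called between 3 or more divisions and the control. The calls between 3 or more and 0 divisions changed as well. The other pathway genes gave 15 to 27. These fits have fewer arrays and unequal replicate numbers. Of 720 results for single genes under the alternatives, 696 kept their direction and call or were uncalled throughout, 14 gained a call, 10 lost it and 0 called values changed sign, while 41 uncalled values did. With a call by any probe set, Tgfbr2 and Smad7 were called too between 3 or more divisions and the control, and 6 of the 10 genes passed. In that comparison Tgfb2 and Tgfb3 were called under 8 of 12 alternatives, Smad3 under 10 and Inhba under 2. No detection calls were used here, so changes of dim probe sets may be understated.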

Other observations

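Genes of the contractile cytoskeleton on the list of TGF-beta targets passed the test in the blocked fit and not without it for Cnn1, Tagln and Acta2, which were named after their values were seen. Cnn1, the actin-binding protein calponin 1, read 5.10 and 8.20 in the fast-dividing cohort, against 9.19 and 10.18 in the control. Its log2 change was -3.03 ± 1.42 (SE), with an adjusted p of 0.187, and of 0.00109 with the block. Tagln, the actin-binding protein transgelin, read 9.69 and 11.57 in that cohort, against 12.74 and 13.40 in the control, a change of -2.44 with an adjusted p of 0.136, and of 0.00135 with the block. Acta2, smooth muscle actin, read 12.34 and 13.40 there, against 14.11 and 14.29 in the control, a change of -1.33 with an adjusted p of 0.184, and of 0.0101 with the block. After 2 divisions Cnn1 read 4.87 and 8.07, Tagln 9.48 and 12.16, and Acta2 11.82 and 13.66. Replicate 1 of all 3 thus lay lower there than in the fast-dividing cohort, as did replicate 2 of Cnn1, while replicate 2 of Tagln and Acta2 lay higher. Replicate 1 was the lower array of each of these genes in every group.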
